A study of Mus musculus with 12 samples.

Results

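The 51 genes described here copy nuclear DNA or make the nucleotides and the chromatin that copying needs. They are a list of named symbols, and for each gene the probe set with the highest mean over all 12 arrays stood for the gene. All 51 had a probe set with 1 symbol, out of 19938 genes so measured. Total RNA of quadriceps, a thigh muscle, was taken from C57Bl/6 mice at day 7 after birth. The arrays labelled KO are annotated as cofilin-2 null (Cfl2 knockout, 6 arrays) and the arrays labelled WT as wild type littermates (6 arrays). Every mouse gave RNA to its own array, and no treatment is named for either group. The Cfl2 gene is absent from every cell of the null mice rather than from muscle fibres alone, and these mice are sick by the age of sampling and die at about that time. The comparison asks how muscle without cofilin-2, a protein that severs actin filaments, differs in its transcripts from muscle with it.

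DNA replication begins in G1 phase, when the origin recognition complex marks origins and, with Cdc6 and Cdt1, loads the MCM helicase ring onto them. This loading is called licensing, and geminin blocks Cdt1 once S phase has begun so that no origin fires again. In S phase Cdc7 kinase, Cdc45 and the GINS complex turn the ring into a working helicase, replication protein A coats the single strands, and polymerases held by the PCNA clamp copy them. Ribonucleotide reductase and the enzymes of thymidylate synthesis supply the building blocks, and chromatin assembly factor 1 and Dnmt1 restore histones and DNA methylation behind the fork. Fibres of skeletal muscle have left the cell cycle, so that in young muscle nuclear DNA is copied in myoblasts and in endothelial, connective tissue and blood cells.

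The targeted gene went against the labels. Cfl2 lay between 12.31 and 12.43 on the log2 scale on the 6 arrays labelled KO, and at 4.92, 5.08, 7.71, 5.92, 6.52 and 6.20 on the arrays labelled WT1 to WT6. The gene was thus high on every array labelled KO and low on every array labelled WT, and no array was reassigned. Every direction given for the other genes is that of the labels, and each would turn if the labels were exchanged between the groups. Array medians were 6.35 to 6.41 on the arrays labelled KO and 6.42 to 6.46 on the arrays labelled WT. Among the arrays labelled WT, WT3 had the highest Cfl2 level, WT4 carried transcripts of neutrophil granules and red cells, and WT6 had the lowest weight when arrays were weighted by their residual spread (0.325, where 1 is average). The muscle label held: the 7 muscle fibre markers averaged 12.94 to 13.08 on the arrays labelled KO and 13.04 to 13.17 on the arrays labelled WT.

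Nearly all of the replication genes had higher transcript levels on the arrays labelled KO. Of the 51, 47 were higher and 0 were lower at an adjusted p under 0.05, where 20.1% of all genes were called higher and 11.8% lower (31.9% in all, as over probe sets). Of the 3908 genes whose mean level lay between the quartiles of the mean levels of these 51, 34.9% were called higher. The median difference of the 51 genes was 0.44 on the log2 scale (labelled KO minus labelled WT, 1.36-fold), with single genes between -0.04 and 1.01, and the median over all genes was -0.01 (-0.015 before rounding). In 26 of the 51 every array labelled KO lay above every array labelled WT, which held for 10.7% of all genes. In bulk tissue, more cells in S phase and more of these transcripts in each cell cannot be told apart. The 4 genes that were not called, Orc2, Orc5, Gmnn and Cdt1, all belong to licensing. The median difference was 0.32 for licensing (11 of 15 called), 0.43 for the fork (17 of 17), 0.51 for the polymerases (10 of 10), 0.69 for nucleotide supply (5 of 5) and 0.56 for chromatin copying (4 of 4). These steps were not tested against each other.

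**Figure D1:**
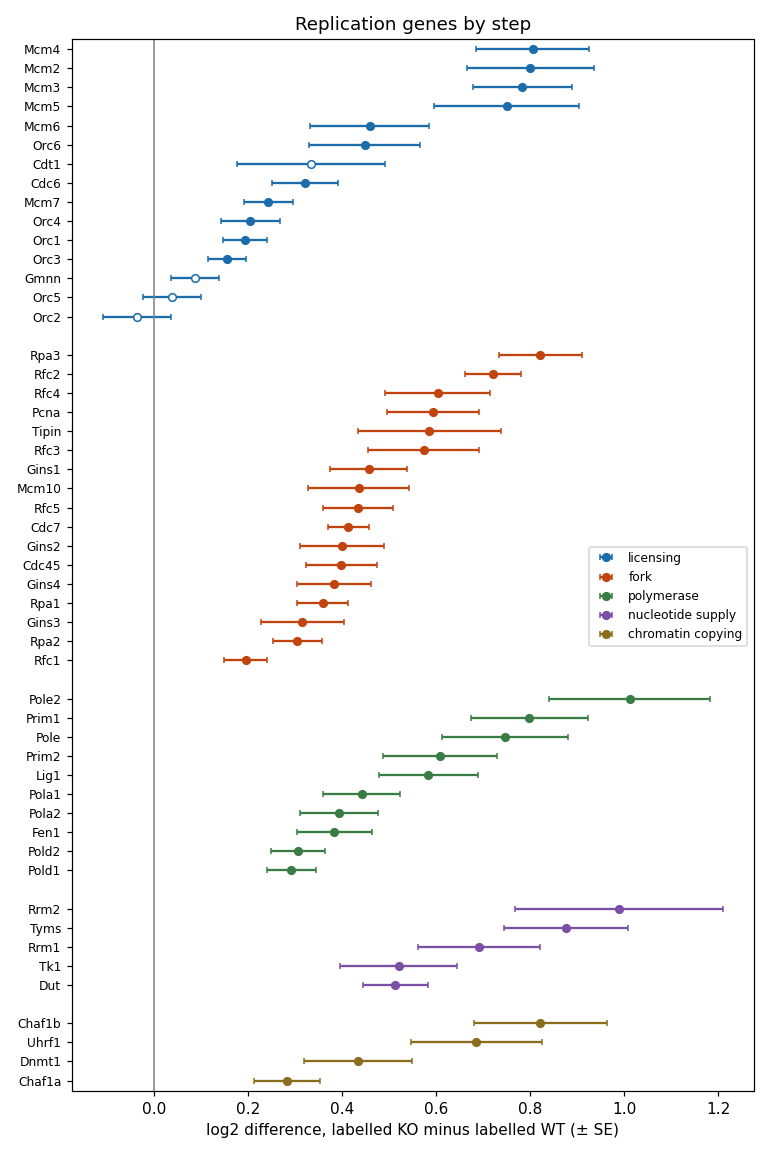
Log2 difference (horizontal axis, labelled KO minus labelled WT) of each of the 51 genes with its standard error, grouped and coloured by step. Filled points were called higher and open points were not called. Cdt1, Gmnn, Orc5 and Orc2 are the open points, and Pole2 at 1.01 lies farthest to the right.

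Many replication genes are known targets of the E2F transcription factors, and their promoters were therefore read. RefSeq start sites (build GRCm38.p6) gave a window of 250 bases before to 50 bases after the start for 42 of the 51 genes. Pole, Gins2, Tipin, Rfc2, Gmnn, Gins1, Gins4, Prim2 and Mcm4 had no entry. An E2F-type match was any of TTTCCCGC, TTTGGCGC, TTTCGCGC, TTTGCCGC and TTCCCGCC on either strand, where the last overlaps the first if a T precedes it. It was found in 18 of the 42 first windows (42.9%), against 5.35% of the 15614 tested genes with a window and 3.89% of all windows in the table. CCAAT, on either strand, was found in 59.5% of the 42 windows and in 38.2% of the windows of tested genes. By step, 8 of 13 licensing genes, 3 of 12 fork genes, 4 of 8 polymerase genes, 1 of 5 nucleotide genes and 2 of 4 chromatin genes held a match, and these shares were not compared by a test. The genes with a match had a median difference of 0.45 (18 genes) and those without 0.43 (24 genes). The 200 bases before the start are given here for the gene with the largest difference in each step that held a match there, and for Orc2, a gene that was not called and held none. They run 5′ to 3′ on the strand of the gene, and capitals mark the E2F-type matches, which in Mcm5 are 2 that overlap on opposite strands. Positions are chr8:75109309-75109508 (plus strand) for Mcm5, chr5:151651209-151651408 (minus strand) for Rfc3, chr10:128015015-128015214 (plus strand) for Prim1, chr7:102441495-102441694 (plus strand) for Rrm1, chr17:56303137-56303336 (plus strand) for Uhrf1 and chr1:58505110-58505309 (minus strand) for Orc2.
Mcm5: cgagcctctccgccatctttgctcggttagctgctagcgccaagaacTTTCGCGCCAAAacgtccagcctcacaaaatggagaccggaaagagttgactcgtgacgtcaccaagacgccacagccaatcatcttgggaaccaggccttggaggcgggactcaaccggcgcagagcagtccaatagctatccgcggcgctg
Rfc3: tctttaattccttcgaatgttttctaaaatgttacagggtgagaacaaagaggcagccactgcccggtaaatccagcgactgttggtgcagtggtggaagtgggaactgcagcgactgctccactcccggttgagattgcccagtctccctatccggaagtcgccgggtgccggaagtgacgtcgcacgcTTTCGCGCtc
Prim1: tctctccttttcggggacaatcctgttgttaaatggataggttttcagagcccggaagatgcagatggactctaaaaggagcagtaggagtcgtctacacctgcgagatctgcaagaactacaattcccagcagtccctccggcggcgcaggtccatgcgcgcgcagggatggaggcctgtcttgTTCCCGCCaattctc
Rrm1: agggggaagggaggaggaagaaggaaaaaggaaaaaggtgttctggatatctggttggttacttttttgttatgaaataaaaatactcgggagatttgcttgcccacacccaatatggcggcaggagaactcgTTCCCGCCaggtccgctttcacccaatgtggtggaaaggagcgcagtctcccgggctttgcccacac
Uhrf1: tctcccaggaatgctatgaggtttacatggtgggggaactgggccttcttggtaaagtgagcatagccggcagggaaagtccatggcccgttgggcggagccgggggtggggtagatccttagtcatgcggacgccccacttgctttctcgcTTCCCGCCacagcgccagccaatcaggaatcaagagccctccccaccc
Orc2: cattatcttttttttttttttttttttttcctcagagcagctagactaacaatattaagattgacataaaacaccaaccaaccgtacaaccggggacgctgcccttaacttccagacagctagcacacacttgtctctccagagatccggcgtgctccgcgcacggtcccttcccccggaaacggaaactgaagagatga
A match is a run of letters and not a measured binding site, and the windows were read from the reference and not from these mice.

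Within licensing every subunit of the helicase ring was called higher, and the proteins that load it were called in part. The differences of ring and loaders overlapped and were not tested against each other. The MCM ring that unwinds DNA has 6 subunits, Mcm2 to Mcm7, and all 6 were called higher with a median of 0.77. Over all genes the share called higher was 20.1%. Mcm4 had a lowest, median and highest level of 8.47, 8.61 and 8.67 on the arrays labelled KO, against 7.29, 7.71 and 8.24 on the arrays labelled WT, a difference of 0.81 ± 0.12 (SE, 1.75-fold, adjusted p = 0.000233). No array labelled WT reached the lowest labelled KO. Mcm2 lay at 9.04, 9.15 and 9.21 on the arrays labelled KO and at 7.86, 8.30 and 8.90 on the arrays labelled WT (0.80 ± 0.14, 1.74-fold, adjusted p = 0.000562). Mcm3 lay at 7.73, 7.75 and 7.77 on the arrays labelled KO and at 6.72, 6.82 and 7.34 on the arrays labelled WT (0.78 ± 0.11, 1.72-fold, adjusted p = 0.000106). Both genes separated the labels fully, and the SD of Mcm3 was 0.017 over the arrays labelled KO against 0.289 over the arrays labelled WT. Mcm5 (0.75 ± 0.15) and Mcm6 (0.46 ± 0.13) overlapped through the array labelled WT4, and Mcm7 differed least within the ring (0.24 ± 0.05, 1.18-fold).

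The origin recognition complex was closer to level. Of its 6 subunits 4 were called higher, where 20.1% of all genes were, with a median of 0.17 over the 6. Orc6 differed by 0.45 ± 0.12, Orc4 by 0.20 ± 0.06 (adjusted p = 0.0230), Orc1 by 0.19 ± 0.05 and Orc3 by 0.16 ± 0.04 (adjusted p = 0.00963). The mean level of Orc1 was low, at percentile 19.1 of all genes. Orc2 had 8.52, 8.63 and 8.85 on the arrays labelled KO, against 8.49, 8.73 and 8.82 on the arrays labelled WT (-0.04 ± 0.07, adjusted p = 0.726). Its groups lay over each other almost in full. Orc5 had 8.08, 8.10 and 8.35 on the arrays labelled KO, against 7.88, 8.14 and 8.23 on the arrays labelled WT (0.04 ± 0.06, adjusted p = 0.668), again with overlap. The call of Orc4 was lost without KO1, KO4 or KO6 (adjusted p = 0.0501, 0.0507 and 0.0550), and those of Orc3 and Orc4 were lost after quantile normalization (adjusted p = 0.0859 and 0.138).

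Of Cdc6, Cdt1 and geminin, Cdc6 alone was called. Cdc6, an ATPase that joins the origin recognition complex to the MCM ring, had 6.68, 6.80 and 6.92 on the arrays labelled KO, against 6.35, 6.45 and 6.79 on the arrays labelled WT (0.32 ± 0.07, 1.25-fold, adjusted p = 0.00335). A single array labelled WT, WT4, reached the range of the arrays labelled KO. Cdt1, the partner that brings the ring, had 7.92, 8.20 and 8.32 on the arrays labelled KO, against 7.15, 7.84 and 8.32 on the arrays labelled WT (0.33 ± 0.16, adjusted p = 0.123). Here WT2, WT3 and WT4, at 7.92, 8.15 and 8.32, lay within the range of the arrays labelled KO, and without WT4 the difference was 0.43 with an adjusted p of 0.0320. With the mean of macrophage or of endothelial markers as a covariate the difference of Cdt1 was -0.24 (adjusted p = 0.527) or -0.35 (adjusted p = 0.350). Gmnn, which encodes geminin, the inhibitor of Cdt1, had 5.47, 5.59 and 5.77 on the arrays labelled KO, against 5.40, 5.53 and 5.57 on the arrays labelled WT (0.09 ± 0.05, adjusted p = 0.214). Its groups overlapped, and after quantile normalization it was called higher (0.14, adjusted p = 0.0271). The mean level of Gmnn was low, at percentile 27.7 of all genes, and the part of this in the missing call was not tested.

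**Figure D2:**
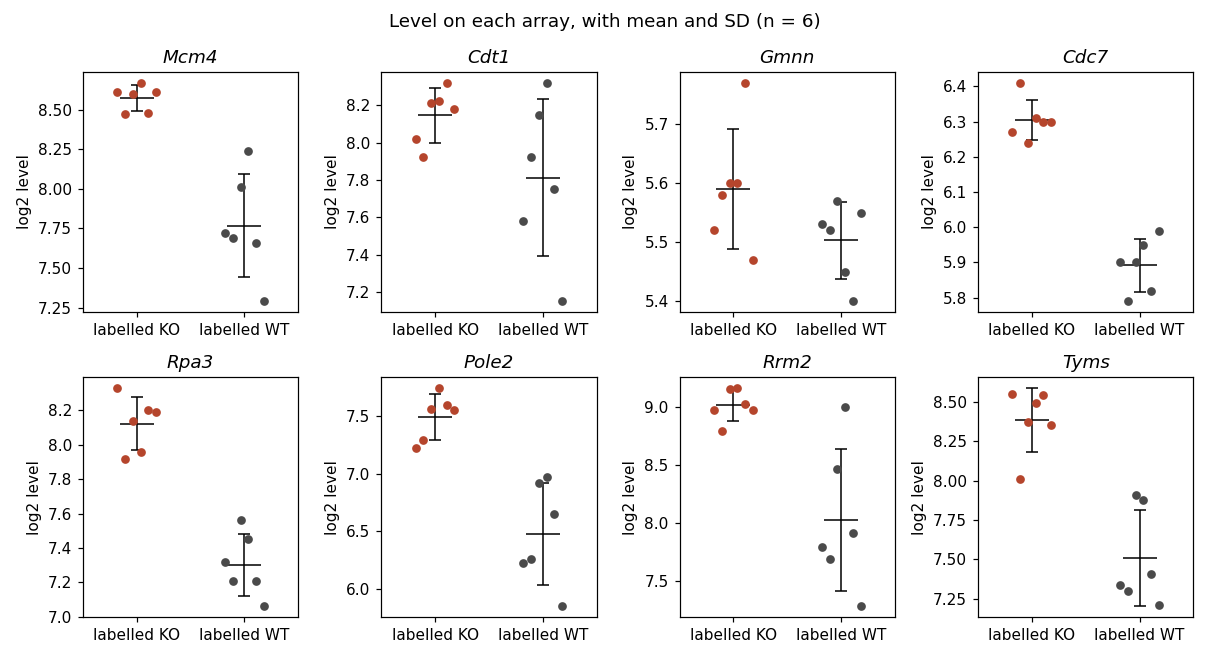
Log2 level (vertical axes, which do not start at 0) of 8 genes on each array, arrays labelled KO on the left and labelled WT on the right, with the mean and SD over 6 arrays. Mcm4, Cdc7, Rpa3, Pole2 and Tyms separate the labels, and Cdt1, Gmnn and Rrm2 overlap.

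All 17 genes of the fork were called higher, and in 12 of them the groups did not overlap. Over all genes, 20.1% were called higher, and 10.7% were higher without overlap. Rpa3, the small subunit of replication protein A, had 7.92, 8.17 and 8.33 on the arrays labelled KO, against 7.06, 7.27 and 7.56 on the arrays labelled WT (0.82 ± 0.09, 1.77-fold, adjusted p = 2.07e-05). Rpa1 (0.36 ± 0.05) and Rpa2 (0.31 ± 0.05), its larger partners, were also separated but by less. Rfc2 and Rfc4 are subunits of the complex that loads the PCNA clamp. Rfc2 had 7.88, 7.99 and 8.15 on the arrays labelled KO, against 7.15, 7.28 and 7.40 on the arrays labelled WT (0.72 ± 0.06, 1.65-fold, adjusted p = 3e-06). Rfc4 had 8.81, 8.96 and 9.04 on the arrays labelled KO, against 7.92, 8.32 and 8.74 on the arrays labelled WT (0.60 ± 0.11, adjusted p = 0.00111). Both genes were higher on every array labelled KO than on any labelled WT. The 5 loader genes had a median of 0.57, and Rfc1, the large subunit, had the smallest difference of the fork (0.20 ± 0.05, 1.14-fold).

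Pcna, the sliding clamp itself, had 10.57, 10.74 and 10.79 on the arrays labelled KO, against 9.88, 10.03 and 10.51 on the arrays labelled WT (0.59 ± 0.10, 1.51-fold, adjusted p = 0.000471). The groups did not overlap, and WT4 came closest. Cdc7, the kinase that starts the loaded helicase, had 6.24, 6.30 and 6.41 on the arrays labelled KO, against 5.79, 5.90 and 5.99 on the arrays labelled WT (0.41 ± 0.04, 1.33-fold, adjusted p = 2.01e-05). Its SD was small in both groups (0.058 over the arrays labelled KO and 0.076 over the arrays labelled WT), and WT6, the lowest array labelled WT for 36 of the 51 genes, was its highest. The 4 GINS subunits, which complete the working helicase with Cdc45, were all called higher, where 20.1% of all genes were. Their differences were 0.32 to 0.46, with a median of 0.39. Cdc45 differed by 0.40 ± 0.08 and Mcm10, a factor for helicase activation, by 0.44 ± 0.11 (adjusted p = 0.00719). Tipin, which with Timeless steadies a moving fork, had the widest spread of the fork over the arrays labelled KO (0.58 ± 0.15, SD 0.218).

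The polymerase genes include the largest difference of all 51. Pole2, the second subunit of the leading strand polymerase epsilon, had 7.22, 7.56 and 7.74 on the arrays labelled KO, against 5.85, 6.46 and 6.97 on the arrays labelled WT (1.01 ± 0.17, 2.02-fold, adjusted p = 0.000556). The groups were apart although WT3 (6.92) and WT4 (6.97) lay well above WT6 (5.85). Pole, the catalytic subunit of the same enzyme, had 7.69, 7.92 and 7.98 on the arrays labelled KO, against 6.62, 7.22 and 7.57 on the arrays labelled WT (0.75 ± 0.13, 1.68-fold, adjusted p = 0.000844). Prim1, the primase subunit that makes the RNA primers, had 7.22, 7.54 and 7.62 on the arrays labelled KO, against 6.24, 6.59 and 7.12 on the arrays labelled WT (0.80 ± 0.12, 1.74-fold, adjusted p = 0.000301). Neither gene overlapped between the labels. Prim2, its partner, differed by 0.61 ± 0.12, and Pola1 and Pola2 of polymerase alpha, which extends the primers, by 0.44 ± 0.08 and 0.39 ± 0.08. Pold1 and Pold2 of the lagging strand polymerase delta differed least, by 0.29 ± 0.05 (1.22-fold) and 0.31 ± 0.06 (1.24-fold). Of the genes that join the lagging strand pieces, the ligase Lig1 differed by 0.58 ± 0.10 without overlap, and the flap nuclease Fen1 by 0.38 ± 0.08 with WT4 (6.60) inside the range of the arrays labelled KO.

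Nucleotide supply had the largest median of the 5 steps. Rrm2, the S phase subunit of ribonucleotide reductase, had 8.79, 8.995 and 9.16 on the arrays labelled KO, against 7.28, 7.85 and 9.0 on the arrays labelled WT (0.99 ± 0.22, 1.98-fold, adjusted p = 0.00385). It overlapped through 1 array, WT4 at 9.0, and without that array the difference was 1.18. Rrm1, the large subunit of the same enzyme, had 10.09, 10.19 and 10.26 on the arrays labelled KO, against 8.97, 9.41 and 9.95 on the arrays labelled WT (0.69 ± 0.13, 1.62-fold, adjusted p = 0.00114), with no overlap. Tyms, which makes thymidylate, had 8.01, 8.43 and 8.55 on the arrays labelled KO, against 7.21, 7.38 and 7.91 on the arrays labelled WT (0.88 ± 0.13, 1.84-fold, adjusted p = 0.000235). Its groups did not overlap, and KO2 at 8.01 lay below the other arrays labelled KO. Dut, which removes dUTP before it can enter DNA, differed by 0.51 ± 0.07 (1.43-fold, adjusted p = 0.000105), also without overlap.

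Tk1, the thymidine kinase of S phase, had 7.92, 8.22 and 8.36 on the arrays labelled KO, against 7.33, 7.55 and 8.11 on the arrays labelled WT (0.52 ± 0.12, 1.43-fold, adjusted p = 0.00573). Only WT4 reached the range of the arrays labelled KO. Tk1 had another, dimmer probe set, which differed by 0.77 ± 0.16 (adjusted p = 0.00256). The probe sets numbered next to the brighter one belong to genes of chromosome 8, whereas Tk1 and the neighbours of the dimmer one lie on chromosome 11, so that what the brighter probe set reads is uncertain. Pcna and Rpa3 also had a dimmer probe set, with differences of 0.59 and 0.42, whose numbered neighbours lie on other chromosomes than the gene.

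Chromatin copying genes were all 4 called higher, where 20.1% of all genes were. Chaf1b, a subunit of the histone chaperone that deposits histones on new DNA, had 7.81, 8.14 and 8.30 on the arrays labelled KO, against 6.81, 7.26 and 7.69 on the arrays labelled WT (0.82 ± 0.14, 1.77-fold, adjusted p = 0.000651). It was the only gene of this step without overlap, where 10.7% of all genes were higher without overlap. Uhrf1, which brings Dnmt1 to hemimethylated sites, had 7.54, 7.86 and 7.91 on the arrays labelled KO, against 6.86, 6.92 and 7.70 on the arrays labelled WT (0.69 ± 0.14, 1.61-fold, adjusted p = 0.00204). Dnmt1, the maintenance DNA methyltransferase, had 8.90, 9.02 and 9.11 on the arrays labelled KO, against 8.15, 8.60 and 9.0 on the arrays labelled WT (0.43 ± 0.11, 1.35-fold, adjusted p = 0.0104). In both, WT4 was the array that reached into the range of the arrays labelled KO. Chaf1a, the large subunit beside Chaf1b, differed by 0.28 ± 0.07 (1.22-fold), and WT4 at 7.16 again lay inside the range of the arrays labelled KO.

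Read array by array, the 51 genes were even on the arrays labelled KO and uneven on the arrays labelled WT. Their mean level was 8.13, 8.04, 8.15, 8.23, 8.19 and 8.19 on KO1 to KO6, and 7.60, 7.60, 7.86, 7.94, 7.62 and 7.39 on WT1 to WT6. The groups did not overlap in this mean, nor in the means of the fork, polymerase and nucleotide genes, while the licensing mean (7.99 on KO2 and 7.99 on WT4) and the chromatin mean (7.84 on KO2 and 7.89 on WT4) met. The median SD of a gene was 0.10 over the arrays labelled KO and 0.21 over the arrays labelled WT. The SD was larger over the arrays labelled WT for 48 of the 51 genes, which held for 68.1% of all genes. WT4 was the highest array labelled WT for 31 genes and WT3 for 12, and WT6 was the lowest for 36. On WT4, 21 of the 51 genes reached the lowest array labelled KO. The same count was 8 on WT3, 5 on WT2, 4 on WT1, 3 on WT5 and 1 on WT6. These counts per array were not made over all genes, so they show no order particular to the 51. Without WT4, 48 genes were called with a median of 0.51, and without both WT3 and WT4 the count was again 48. In these fits 32.8% and 33.2% of all probe sets were called, in either direction.

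**Figure D3:**
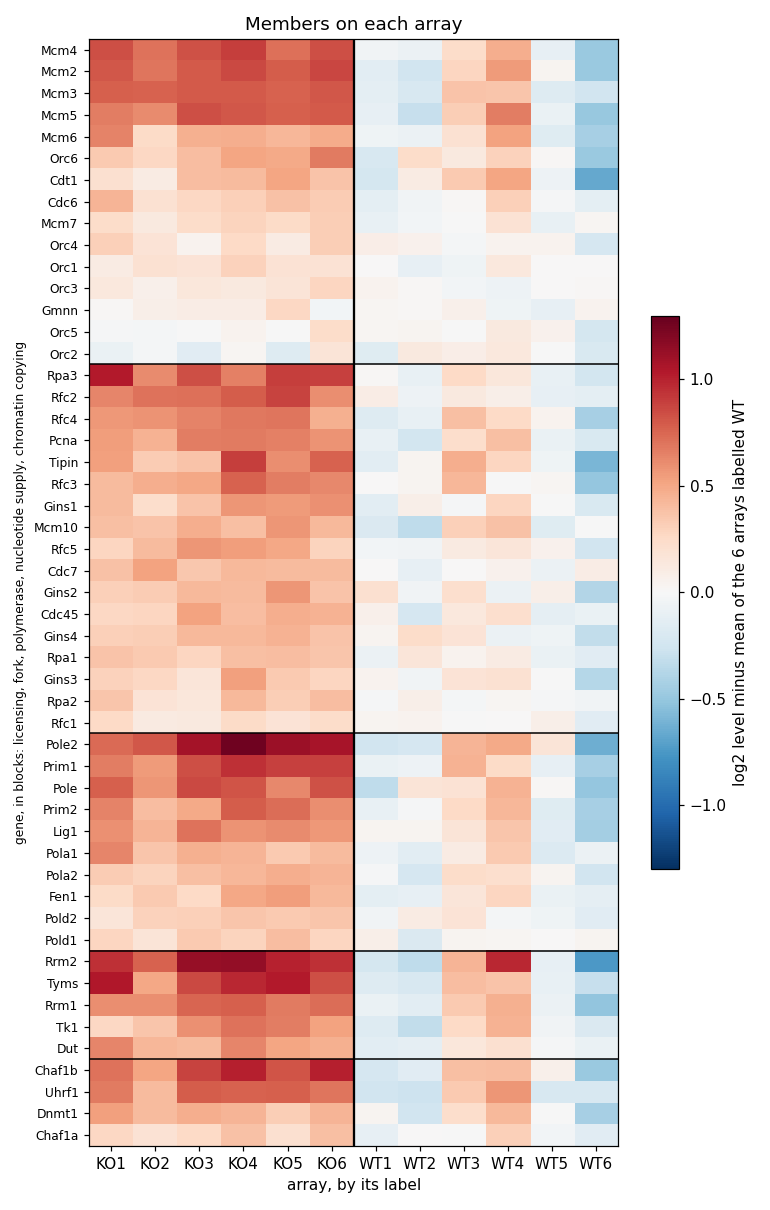
Log2 level of each of the 51 genes (rows, in blocks by step) on each array (columns, labelled KO left of the line and labelled WT right of it), less the mean of the 6 arrays labelled WT. Red is higher and blue lower. The columns KO1 to KO6 are red in nearly every row, WT4 and WT3 are the reddest of the WT columns, and WT6 is the bluest.

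Most of the 51 genes followed the same order over the arrays labelled WT. As a description over 6 arrays that share their dissection and scaling, the Pearson correlation of a gene with the mean of the other 50 was 0.99 for Mcm4, 0.98 for Rrm2 and 0.97 for Mcm2, Mcm5 and Mcm6. It was 0.95 for Cdt1, which shared the order of the arrays labelled WT without being called between the labels. A few genes did not share this order, with values of -0.01 for Cdc7, 0.11 for Pold1, 0.25 for Rpa2, -0.21 for Gmnn and -0.83 for Orc3. Among genes outside the lists used here, the highest correlations with the mean of the 51 over the arrays labelled WT (6 arrays) belonged to Slc26a7, Eng, Kif15, H2bc14, Mef2d, Dclre1a, Diaph3, Oard1, Chek2 and Axin2, between 0.990 and 0.997. Of these, Kif15 (0.65), H2bc14 (0.55), Diaph3 (0.51), Chek2 (0.42) and Oard1 (0.21) were higher on the arrays labelled KO, Slc26a7 (-0.56) and Axin2 (-0.23) were lower, and Eng, Mef2d and Dclre1a were not called.

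Markers of several cell types moved with the labels or with single arrays. Beside the counts below, 20.1% of all genes were called higher and 11.8% lower. Of 8 macrophage markers 6 were higher on the arrays labelled KO, and their mean was 8.86 to 9.05 on the arrays labelled KO and 8.28 to 8.84 on the arrays labelled WT. Of 7 endothelial markers 6 were higher, with means of 10.22 to 10.32 on the arrays labelled KO and 9.66 to 10.08 on the arrays labelled WT. Neither mean overlapped between the labels. Of 6 measured fibroblast markers 5 were higher and 1 lower, and of 7 adipocyte markers 5 were higher (means of 8.20 to 10.03 on the arrays labelled KO and 7.93 to 9.11 on the arrays labelled WT). Of 6 satellite cell and myoblast markers only Pax7 was called (0.20), and of 7 muscle fibre markers 4 were lower and 1 higher. Of 3 measured Schwann cell markers 1 was higher, and of 4 measured lymphocyte markers 0 were called. With the macrophage mean as a covariate 6 of the 51 replication genes were called (Mcm3, Cdc7, Rfc2, Rpa3, Pold1 and Dut), with a median of 0.25. In that fit 8.87% of all probe sets were called in either direction. With the endothelial mean 4 were called (Cdc7, Rfc2, Rpa3 and Pold1), with a median of 0.22, beside 5.58% of all probe sets. With the adipocyte mean 27 were called, beside 13.4% of all probe sets, and the median was 0.44, as large as without it. Calls thus fell over all probe sets in each of these fits. Since the macrophage and endothelial means do not overlap between the labels, the label and these levels cannot be told apart in such a fit.

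None of 6 neutrophil markers and none of 3 measured erythroid markers was called between the labels, where 31.9% of all genes were (20.1% higher and 11.8% lower). The neutrophil mean was 5.40 to 5.82 on the arrays labelled KO and 5.57 to 5.98 on the arrays labelled WT other than WT4, which had 8.89. The erythroid mean was 6.69 to 7.14 on the arrays labelled KO and 6.50 to 6.87 on the same 5 arrays labelled WT, and 8.19 on WT4. The lymphocyte mean was 5.48 to 5.63 on the arrays labelled KO and 5.45 to 5.55 on those 5 arrays labelled WT, and 6.05 on WT4, where Ptprc (7.74) and Cd79a (5.51) were above every other array. The T cell genes did not share this. Cd3e on WT4 (6.68) lay below WT6 (6.88) and KO3 (6.79), and Cd3g was lowest of all arrays on WT4 (4.28). The means of all 3 sets of blood cell markers were thus highest on WT4, though not every lymphocyte gene was. WT4 was also the array whose replication genes lay nearest to the arrays labelled KO, and the part of blood cells in those levels was not tested. The mean of 10 glucocorticoid response genes was 8.62 to 8.98 on the arrays labelled KO, and 9.76, 10.06, 9.04, 8.97, 9.16 and 10.27 on WT1 to WT6. Of the 10 genes 5 were lower on the arrays labelled KO. The mean was lowest on WT4 and WT3 and highest on WT6 among the arrays labelled WT, and its part in the replication genes was not tested. Of 4 measured markers of proliferating cells, Top2a, Aurkb and Birc5 were higher, and Mki67 had 9.86 to 10.10 on the arrays labelled KO and 8.45 to 10.43 on the arrays labelled WT (0.55, adjusted p = 0.0854).

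**Figure D4:**
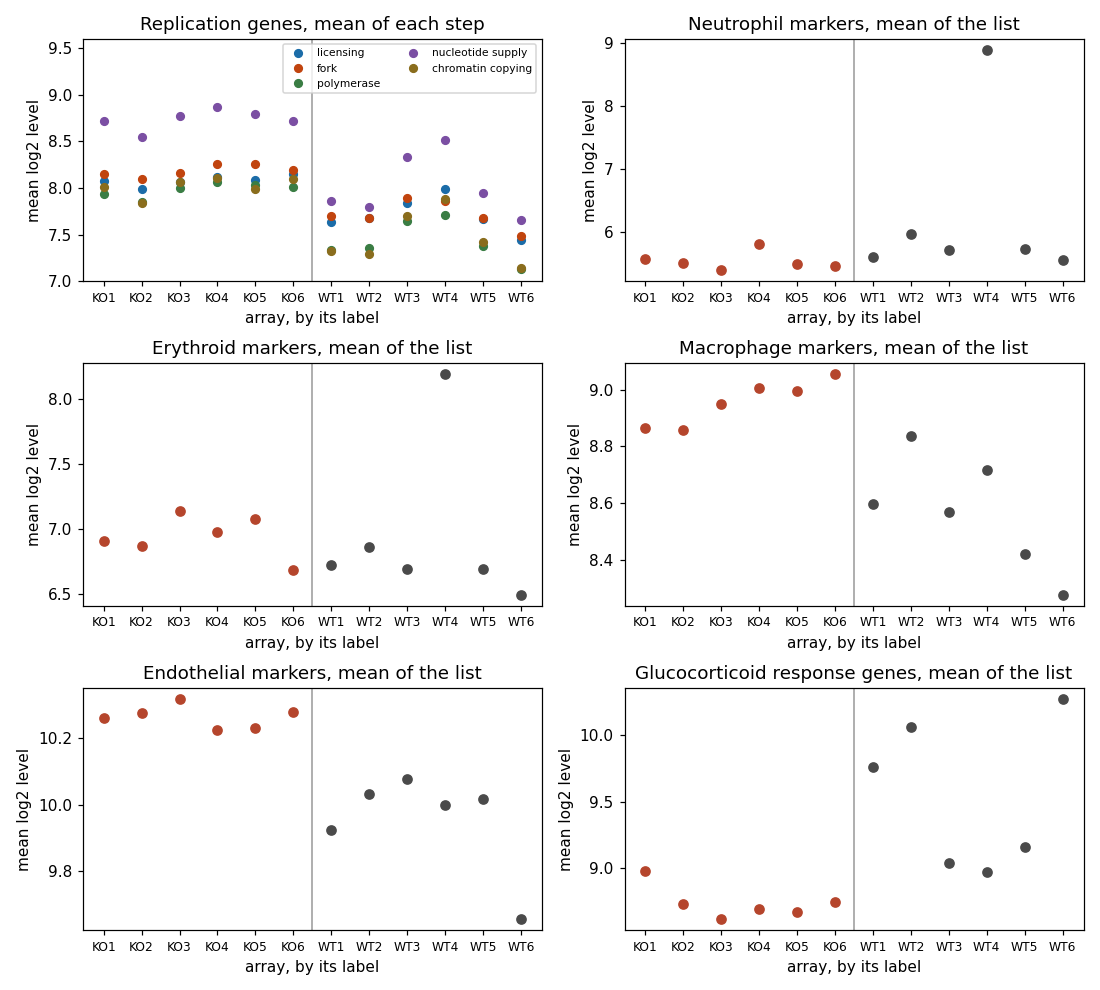
Mean log2 level (vertical axes, which do not start at 0) of the genes of each replication step and of 5 marker lists on each array, labelled KO left of the line and labelled WT right of it. The nucleotide supply mean is 8.55 to 8.87 on the arrays labelled KO and 7.65 to 8.51 on the arrays labelled WT. WT4 stands apart in neutrophil and erythroid markers, and WT6 has the lowest macrophage and endothelial means and the highest glucocorticoid mean.

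Other genes of the same pathways leaned the same way with smaller medians. Of 31 other replication factors 19 were higher and 1 lower, with a median difference of 0.29, where 20.1% of all genes were higher and 11.8% lower. Pclaf, a PCNA partner, averaged 9.26 ± 0.14 on the arrays labelled KO and 8.21 ± 0.42 on the arrays labelled WT (SD, n = 6 each, difference 1.05). The topoisomerase Top2a (0.87), Dbf4, the activating subunit of Cdc7 (0.68, adjusted p = 0.00593), and Dtl, which marks Cdt1 for destruction (0.65), were next. Top2b, the topoisomerase of resting cells, was the gene that was lower, and is named because of that result (difference -0.245, 9.59 ± 0.08 on the arrays labelled KO and 9.83 ± 0.13 on the arrays labelled WT, SD, n = 6 each). Of 10 measured genes of chromatin copying outside the 51, 6 were higher, led by the histone chaperone Asf1b (0.92), the remodeller Hells (0.81), Cdca7 (0.57) and the histone chaperone Nasp (0.47).

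Nucleotide synthesis beyond the 5 genes above was mixed. Of 22 measured genes 14 were higher and 2 lower, with a median of 0.28, where 20.1% of all genes were higher and 11.8% lower. Ppat, the entry enzyme of purine synthesis, averaged 9.37 ± 0.16 on the arrays labelled KO and 8.37 ± 0.33 on the arrays labelled WT (SD, n = 6 each, 2.01-fold). Dctd (0.64), Nme1 (0.51) and the thymidylate kinase Dtymk (0.49) followed. The lower genes, named because of that result, were Impdh1 (-0.36), an enzyme of guanine nucleotide synthesis, and Ctps (-0.26), which makes CTP. Among genes that supply nucleotides outside S phase, Dguok (0.51), Dck (0.40) and Samhd1 (0.27), which breaks dNTPs down, were higher. The reductase subunit of resting cells, Rrm2b, had 6.97 to 7.46 on the arrays labelled KO and 6.91 to 7.36 on the arrays labelled WT (0.08, adjusted p = 0.521), and the mitochondrial thymidine kinase Tk2 had 7.26 to 7.73 on the arrays labelled KO and 7.32 to 7.46 on the arrays labelled WT (0.04, adjusted p = 0.682). The groups overlapped in both.

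Genes that copy mitochondrial DNA did not share the pattern of the 51. Of 9, 1 was higher (Mgme1, a nuclease, 0.29) and 1 lower (Twnk, the mitochondrial helicase, -0.28), with a median of -0.01 (-0.00833 before rounding). Over all genes 20.1% were called higher and 11.8% lower, so that so short a list is not set apart from them by these counts. Polg, the catalytic subunit of the mitochondrial polymerase, had 7.75 to 7.96 on the arrays labelled KO and 7.67 to 7.96 on the arrays labelled WT (0.08, adjusted p = 0.313). The difference between this list and the nuclear genes was not tested.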

How the data were processed

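Quadriceps RNA of 12 mice was hybridized to Affymetrix Mouse Gene 1.0 ST arrays, 1 mouse per array. The authors extracted images with the Affymetrix operating software and made gene values with Affymetrix Power Tools. Which software version, summary method and build they used is not given in the sources used here. Values as deposited were read as log2 levels already normalized across arrays by the authors, a scale taken from the values. All 12 columns matched a sample title, and groups came from the titles.

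Of 35556 rows, 21789 had 1 symbol in the platform annotation, 1621 several and 12146 none. Symbols were updated by gene identifier from RefSeq for 21698. The 21789 were fitted with limma 3.58.1 in R 4.3.3 (lmFit and eBayes, no covariate), and p-values were adjusted by Benjamini-Hochberg over all of them, with calls at 0.05. A fold is 2 to the power of the log2 difference. Of 19938 genes, 999 had more than 1 probe set, and the brightest was used. No dim probe sets were removed, and precision is limited by how many arrays there were.

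The 51 genes, the other lists and the markers were chosen with earlier results of these data known, so no list was tested. All 51 could be named. Per-array values are given for the 3 largest differences of each step, for genes not called and for Pcna, Gmnn, Cdt1, Mcm2, Cdc6, Rrm2, Tk1 and Tyms, and Cdc7 was added after its values were seen. Up to 4 called genes of each other list are named, with Rrm2b, Tk2, Dguok, Samhd1, Dck, Dbf4, Top2a and Polg, and the 10 genes outside the lists most like the mean of the 51. The fit was tested on simulated data of 6 against 6 arrays and 21789 probe sets. It recovered 23, 46, 50 and 50 of 50 planted changes of 0.25, 0.5, 1 and 2 on the log2 scale, with 11 false calls. The simulated noise was independent between probe sets and equal in both groups, and no other probe sets changed. The data differ in these points, with 31.9% of probe sets called, so recovery and false calls in them may differ.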

Additional observations from a re-analysis of the deposited data

Results flagged for a closer look

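Each group of 6 arrays was checked for an array far from the other 5, in 104 groups of 6 arrays (the 51 genes and their mean, under each label). This marked 9, where chance marks about 1 group in 20. On the arrays labelled KO, Orc5 was highest on KO6 at 8.35 (the others at 8.08 to 8.15), Pold2 was lowest on KO1 at 10.26 (the others at 10.41 to 10.47), and 2 genes were lowest on KO2, Tyms at 8.01 (the others at 8.35 to 8.55) and Uhrf1 at 7.54 (the others at 7.80 to 7.91). On the arrays labelled WT, 2 genes were highest on WT4, Cdc6 at 6.79 (the others at 6.35 to 6.50) and Chaf1a at 7.16 (the others at 6.70 to 6.85). WT6 was lowest for Orc5 at 7.88 (the others at 8.10 to 8.23) and for Rfc1 at 8.42 (the others at 8.56 to 8.64), and WT2 was lowest for Pold1 at 7.00 (the others at 7.20 to 7.27).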

How the results depend on the processing

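Over leaving out each array in turn, 46 to 48 of the 51 genes were called, with a median difference of 0.42 to 0.51 and 5924 to 7155 of all probe sets called. Results stayed close under quantile normalization, median centring, filters on dim probe sets, other variance settings, array weights and all rows of the table. So they did with Xist as a covariate, without WT4 and WT6 (added after seeing the data), and under the methods' t-test and other rules for the probe set of a gene. Close means counts within 1.5 times, and medians of the steps within 1 SD (0.147), of the reported ones. That SD is of the mean of all 51 genes over arrays, pooled over the labels, and served for every step. Under the filters, 46 of 50 and 37 of 40 genes left were called, beside 41.9% and 50.1% of the probe sets left, in either direction. The replicate block (the number in the title as a block) called 47 genes and 6074 probe sets. The methods describe pairs of null and wild type littermates, and whether the numbers follow these pairs is not stated. Deviations of same-numbered arrays from their group means had correlations of -0.22 to 0.17, and only numbers 1 and 5 matched their own number best. Weak correlations cannot show that arrays are unpaired, so pairing by number stays unknown.

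The values that moved belong to 4 settings, and for these the cause was not tested. With the adipocyte mean as a covariate, 27 genes were called (licensing 5, fork 10, polymerase 8, nucleotide supply 2, chromatin copying 2), and 2913 probe sets (13.4%), while the medians stayed close to the reported ones (0.44 for all, licensing 0.38, fork 0.43, polymerase 0.49, nucleotide supply 0.61, chromatin copying 0.53). The next 3 settings were chosen after seeing the data. Without the arrays WT3 and WT4 the median was 0.89 for nucleotide supply and 0.755 for chromatin copying. With the macrophage mean 6 genes were called with a median of 0.25, licensing 1 and 0.14, fork 3 and 0.25, polymerase 1 and 0.30, nucleotide supply 1 and 0.48, chromatin copying 0 and 0.36, and 1933 probe sets (8.87%). With the endothelial mean 4 genes were called with a median of 0.22, licensing 0, fork 3 and 0.21, polymerase 1 and 0.25, nucleotide supply 0 and 0.33, chromatin copying 0 and 0.22, and 1216 probe sets (5.58%). Orc6 changed direction under both, to -0.038 (adjusted p = 0.905) and -0.046 (adjusted p = 0.903), with adjusted p of 0.00238 to 0.905 over its settings. Of the genes that were not called, Cdt1 was also negative under both (-0.24 and -0.35), Orc5 too (-0.15 and -0.16), and Orc2 more so than without a covariate (-0.25 and -0.26), which left 47 of the 51 differences positive under each.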
